A study of Mus musculus with 8 samples.

Results

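Wnt signalling genes were followed in the lateral ganglionic eminence (LGE), the embryonic territory that produces the projection neurons of the striatum, after loss of the homeodomain factor Meis2. Members were the protein-coding genes whose symbols name Wnt ligands, their receptors and co-receptors, secreted antagonists, planar polarity proteins, or the core transducers and TCF/LEF factors. This gave 42 of the 16913 genes in the authors' deposited table. RNA was sequenced from dissected LGE at embryonic day 14.5 in 4 Meis2-CKO samples, which carried Dlx5/6-Cre and had both Meis2 alleles floxed (Dlx5/6-Cre;Meis2F/F). The 4 littermate controls carried the same Cre with a floxed and a wild-type allele (Dlx5/6-Cre;Meis2F/+), so they were not wild type. All samples shared a mixed C57BL/6J and CD1 background. The driver is active in Dlx-expressing cells of the ventral forebrain, and cells outside that lineage keep Meis2. Each value below is the authors' mean over a genotype, in a unit the header does not name, with no spread between samples, so no SD is attached. The labels do not say whether a sample was a single embryo.

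Wnt proteins are secreted lipid-modified ligands that bind Frizzled receptors. Together with Lrp5 or Lrp6 they stabilise beta-catenin, which then acts with TCF/LEF factors on target genes. Through Ror, Ryk and the planar polarity proteins they act without beta-catenin, on cell polarity, migration and axon growth. In the embryonic forebrain, Wnt signals are best known from the cortical hem and the pallium, and secreted Frizzled-related proteins are made by radial glia.

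The tissue and the targeted gene were checked first. Meis2 stood at 140 in Meis2-CKO and 204 in control and was 0.53 lower on the log2 scale (log2 fold change -0.53, adjusted p = 0.00195 in the authors' deposited table). The LGE genes Dlx1 (authors' means of 496 in Meis2-CKO and 393 in control), Gsx2 (24.2 in Meis2-CKO and 20.9 in control) and Gad2 (75.4 in Meis2-CKO and 90.3 in control) were all present. Of the 10 LGE markers followed, Meis2 among them, 3 were called lower in the authors' deposited table and 0 higher. Besides Meis2, the called genes were the striatal neuron genes Foxp1 and Bcl11b. Foxp1 had authors' means of 16.1 in Meis2-CKO and 40.2 in control, and Bcl11b 48.2 in Meis2-CKO and 74.1 in control. An unadjusted p under 0.05 was found for 7 of the 10, in both directions. Dlx1, Dlx2 and Dlx5 were higher in Meis2-CKO, and Meis2, Foxp1, Bcl11b and Gad2 lower. Over all rows, 0.78% were called and 2.17% had an unadjusted p under 0.05, the latter against 1.36% of protein-coding rows. Pallial RNA was present too, with authors' means for Neurod6 of 71.9 in Meis2-CKO and 66.0 in control and for Tbr1 of 37.9 in Meis2-CKO and 35.6 in control. The labels give no sex. Xist had an authors' mean of 256 in Meis2-CKO and 78.0 in control, and the Y-linked Eif2s3y 14.0 in Meis2-CKO and 50.5 in control. Of 5 sex-linked genes followed, 3 were called lower in Meis2-CKO and 0 higher. These were the Y-linked Eif2s3y (adjusted p = 1.02e-16), Ddx3y (adjusted p = 0.000279) and Kdm5d (adjusted p = 0.00202) in the authors' deposited table. The part of this imbalance in the differences below was not tested.

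Wnt5a was the only member that passed an adjusted p of 0.05, and it rose. Its protein is a ligand that acts mainly without beta-catenin, through Ror receptors and Ryk. Wnt5a (ENSMUSG00000021994, chromosome 14, 28504750 to 28527448, plus strand, GRCm38) had an authors' mean of 14.2 in Meis2-CKO and 5.62 in control. This was a 2.52-fold rise (log2 fold change 1.33, p = 7.15e-05, adjusted p = 0.0106 in the authors' deposited table). The call was lost under the more conservative Benjamini-Yekutieli adjustment (adjusted p = 0.109, from the p-values of the authors' deposited table). In this bulk tissue, more cells of a type that makes Wnt5a and more Wnt5a RNA per cell cannot be told apart.

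Few protein-coding genes were called higher in this comparison, and Wnt5a was among them. The authors' deposited table called 0.78% of all its rows, that is 0.237% higher and 0.544% lower. Of its protein-coding rows 0.0293% were called higher, which is 4 of 13643 genes. Besides Wnt5a these were Arrdc4 and the predicted genes Gm3411 and Gm6356. Among the 2981 protein-coding genes, Wnt5a included, whose higher mean lay within 1.5 times of that of Wnt5a, it had the largest log2 fold change. Wnt5a was singled out with its rise known, so this rank describes it and is no separate support. Of the 2981 genes 12 were called, and the 11 besides Wnt5a were all lower in Meis2-CKO. The smallest absolute log2 fold change called at this level was the 1.33 of Wnt5a itself, so smaller differences in genes of this level were not called in the authors' deposited table.

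**Figure D1:**
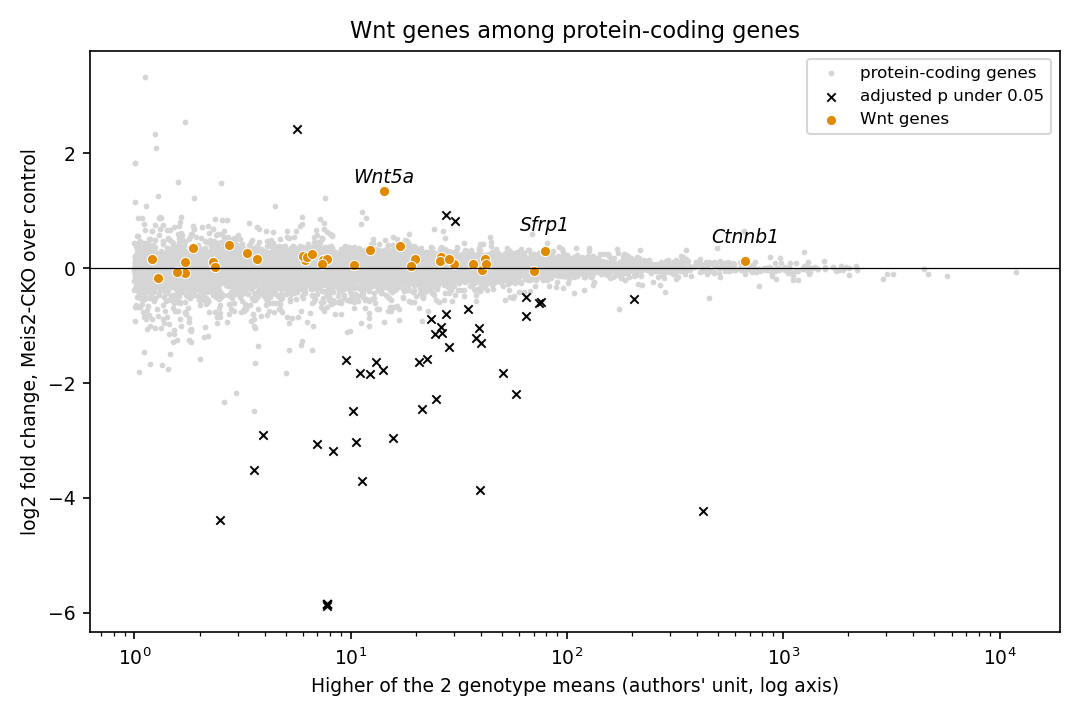
Difference on the log2 scale between Meis2-CKO and control, positive where Meis2-CKO is higher (authors' deposited table) against the higher of the 2 genotype means (authors' unit, log axis) for protein-coding genes with a mean of at least 1. Grey points are all such genes, crosses are called genes that are no Wnt genes, and orange points are Wnt genes; Wnt5a, at 1.33, stands apart from the other Wnt genes, which lie between -0.18 and 0.40.

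The genes that lie around Wnt5a gave no call. Within 1 Mb on either side, 4 other genes were listed and 0 passed, with 0 also at an unadjusted p of 0.05. None could then pass the Benjamini-Yekutieli adjustment, which is stricter by construction. Erc2, whose end lies nearest upstream, had authors' means of 9.65 in Meis2-CKO and 11.97 in control, and Cacna2d3, the calcium channel subunit gene on the other side, 4.49 in Meis2-CKO and 4.17 in control. Gm2670 lies inside Wnt5a on the opposite strand and had authors' means of 0.930 in Meis2-CKO and 0.328 in control (log2 fold change 1.23, p = 0.269 in the authors' deposited table). The counting is not stated to use strand, so the reads of Gm2670 and Wnt5a cannot be separated where their exons overlap. In all, the spans of 8 members, introns included, overlap a listed gene on the opposite strand. The others are Wnt5b, Wnt7b, Sfrp2, Ctnnb1, Dvl1, Dvl2 and Dvl3, and their values carry the same limit. Exons of the overlapping genes were not compared.

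The rise changed the order of the ligand genes. The authors' values look scaled by transcript length: when protein-coding genes were cut into 5 bins by their length of exon, the median in control was 1.54 times higher in the longest bin than in the shortest, for a length 5.84 times greater. Levels of different genes are compared on that footing. Wnt7a, a neural ligand also needed for growth of brain vessels, was the highest in both genotypes, with authors' means of 26.3 in Meis2-CKO and 23.0 in control. Wnt7b, its close relative, had authors' means of 10.4 in Meis2-CKO and 10.01 in control. Wnt5a therefore ranked 2 of 6 ligands in Meis2-CKO and 3 in control. It made up 26.04% of the summed ligand signal in Meis2-CKO and 13.2% in control. Without Wnt5a, the ligands summed to 40.4 in Meis2-CKO and 37.0 in control.

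**Figure D2:**
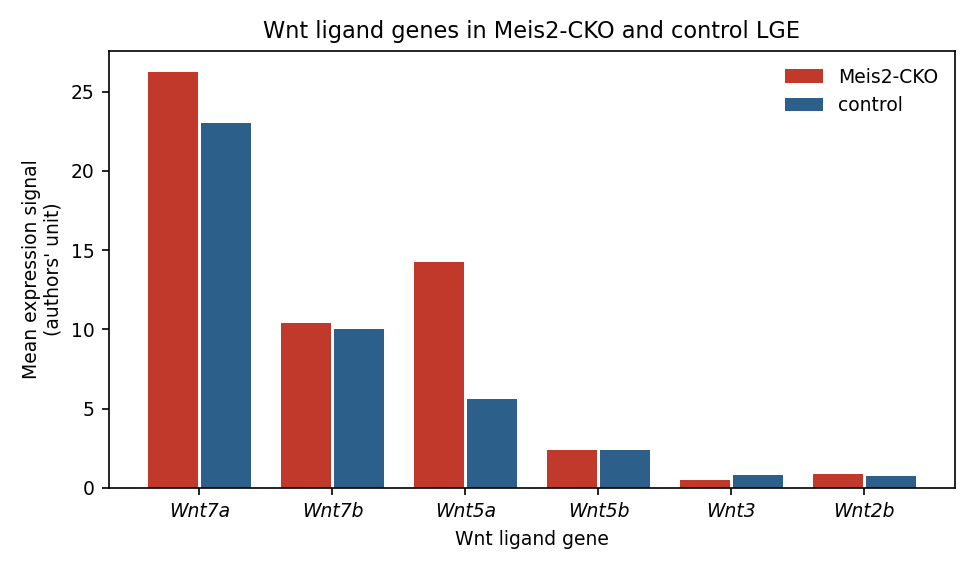
Authors' mean expression signal (vertical axis, authors' unit, from 0) of the 6 listed Wnt ligand genes in Meis2-CKO (red) and control (blue), ordered by the control level; bars carry no error because only means were used. Wnt5a stands at 14.2 in Meis2-CKO and 5.62 in control, and moves above Wnt7b.

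None of the other 5 ligand genes passed. Wnt7a had a log2 fold change of 0.20 (p = 0.325) and Wnt7b of 0.06 in the authors' deposited table. Wnt5b, the closest paralog of Wnt5a, had the same authors' mean of 2.37 in both genotypes. Its log2 fold change was 0.01 in the authors' deposited table, whose fold changes are not exact ratios of the means. Wnt2b, a ligand of the cortical hem, had authors' means of 0.895 in Meis2-CKO and 0.775 in control. Wnt3, a ligand of the beta-catenin pathway, had 0.523 in Meis2-CKO and 0.828 in control (log2 fold change -0.55, p = 0.605 in the authors' deposited table).

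Sequence upstream of the members was searched for the hexamer TGACAG, which Meis proteins bind, and for CTTTGA, a core of TCF/LEF sites, on both strands. RefSeq promoter windows (GRCm38.p6) matched 27 of the 42 members by symbol, with 35 starts, and the 250 bases before each start were read. Not matched were Wnt5a, Wnt7b, Fzd2, Fzd3, Fzd6, Fzd8, Lrp5, Lrp6, Rspo3, Sfrp1, Sfrp4, Dkk3, Celsr1, Vangl1 and Axin1. The hexamer was found before 3 of the 35 starts, those of Wnt3, Tcf7l1 and a start inside Lef1, against 15.9% of all 32851 windows. CTTTGA was found before 3 starts, of Fzd1, Wnt5b and Lef1, against 13.8% of all windows. In Wnt3 the hexamer directly follows TGAT, the letters of its partner Pbx, in the composite motif of the pair. The composite was searched for after the window had been read, and 0.198% of all windows hold it. The 2 windows are shown because Wnt3 holds the composite and Lef1 holds letters for both Meis and TCF/LEF. Capitals mark the composite in Wnt3 (chr11:103773925-103774174, plus strand) and, in Lef1 (chr3:131156044-131156293, plus strand), the reverse complement of each motif.
Wnt3: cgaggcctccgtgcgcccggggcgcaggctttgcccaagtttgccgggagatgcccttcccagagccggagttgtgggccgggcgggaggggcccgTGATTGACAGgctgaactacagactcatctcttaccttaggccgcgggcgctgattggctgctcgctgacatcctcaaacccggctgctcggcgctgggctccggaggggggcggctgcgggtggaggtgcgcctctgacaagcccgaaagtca
Lef1: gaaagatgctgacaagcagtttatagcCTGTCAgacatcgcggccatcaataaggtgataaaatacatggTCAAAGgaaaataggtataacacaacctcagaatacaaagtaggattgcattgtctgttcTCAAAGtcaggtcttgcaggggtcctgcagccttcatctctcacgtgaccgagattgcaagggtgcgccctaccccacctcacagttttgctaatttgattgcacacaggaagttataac
These are matches of letters only, and neither gene passed the test.

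Frizzled receptor genes, the cell-surface receptors of Wnt ligands, had slightly higher means without any of them passing. All 10 were listed, 9 had a log2 fold change above 0 and the median was 0.14 in the authors' deposited table. Fzd2 was the highest, with authors' means of 28.6 in Meis2-CKO and 25.7 in control, and Fzd8 followed with 25.8 in Meis2-CKO and 23.9 in control. Fzd1 had authors' means of 7.38 in Meis2-CKO and 7.09 in control, Fzd3, which guides axon tracts, 6.16 in Meis2-CKO and 5.59 in control, and Fzd7 3.70 in Meis2-CKO and 3.33 in control. These receptors kept the same order in both genotypes. Fzd5 had the largest log2 fold change of the family, at 2.73 in Meis2-CKO and 2.06 in control (log2 fold change 0.40, p = 0.524 in the authors' deposited table). Fzd6 (authors' means of 2.31 in Meis2-CKO and 2.15 in control) and Fzd4 (1.21 in Meis2-CKO and 1.08 in control) were low. Fzd10, at 0.385 in Meis2-CKO and 0.475 in control, and Fzd9, at 0.923 in Meis2-CKO and 0.863 in control, were under a mean of 1.

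Co-receptors, among them the receptors of Wnt5a, did not pass either. Ryk, a receptor of the pseudokinase class, had authors' means of 29.9 in Meis2-CKO and 28.6 in control. Ror2, a receptor tyrosine kinase that binds Wnt5a, was low, with authors' means of 1.86 in Meis2-CKO and 1.44 in control (log2 fold change 0.35, p = 0.634 in the authors' deposited table). Lrp6 had authors' means of 19.1 in Meis2-CKO and 18.8 in control, and Lrp5 7.80 in Meis2-CKO and 7.06 in control. Lgr4, a receptor for R-spondins that raises Wnt receptor levels, had 6.27 in Meis2-CKO and 5.50 in control (log2 fold change 0.20, p = 0.631 in the authors' deposited table); it lies on chromosome 2, as Meis2 does. Rspo3, an R-spondin ligand, had authors' means of 0.778 in Meis2-CKO and 0.730 in control.

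**Figure D3:**
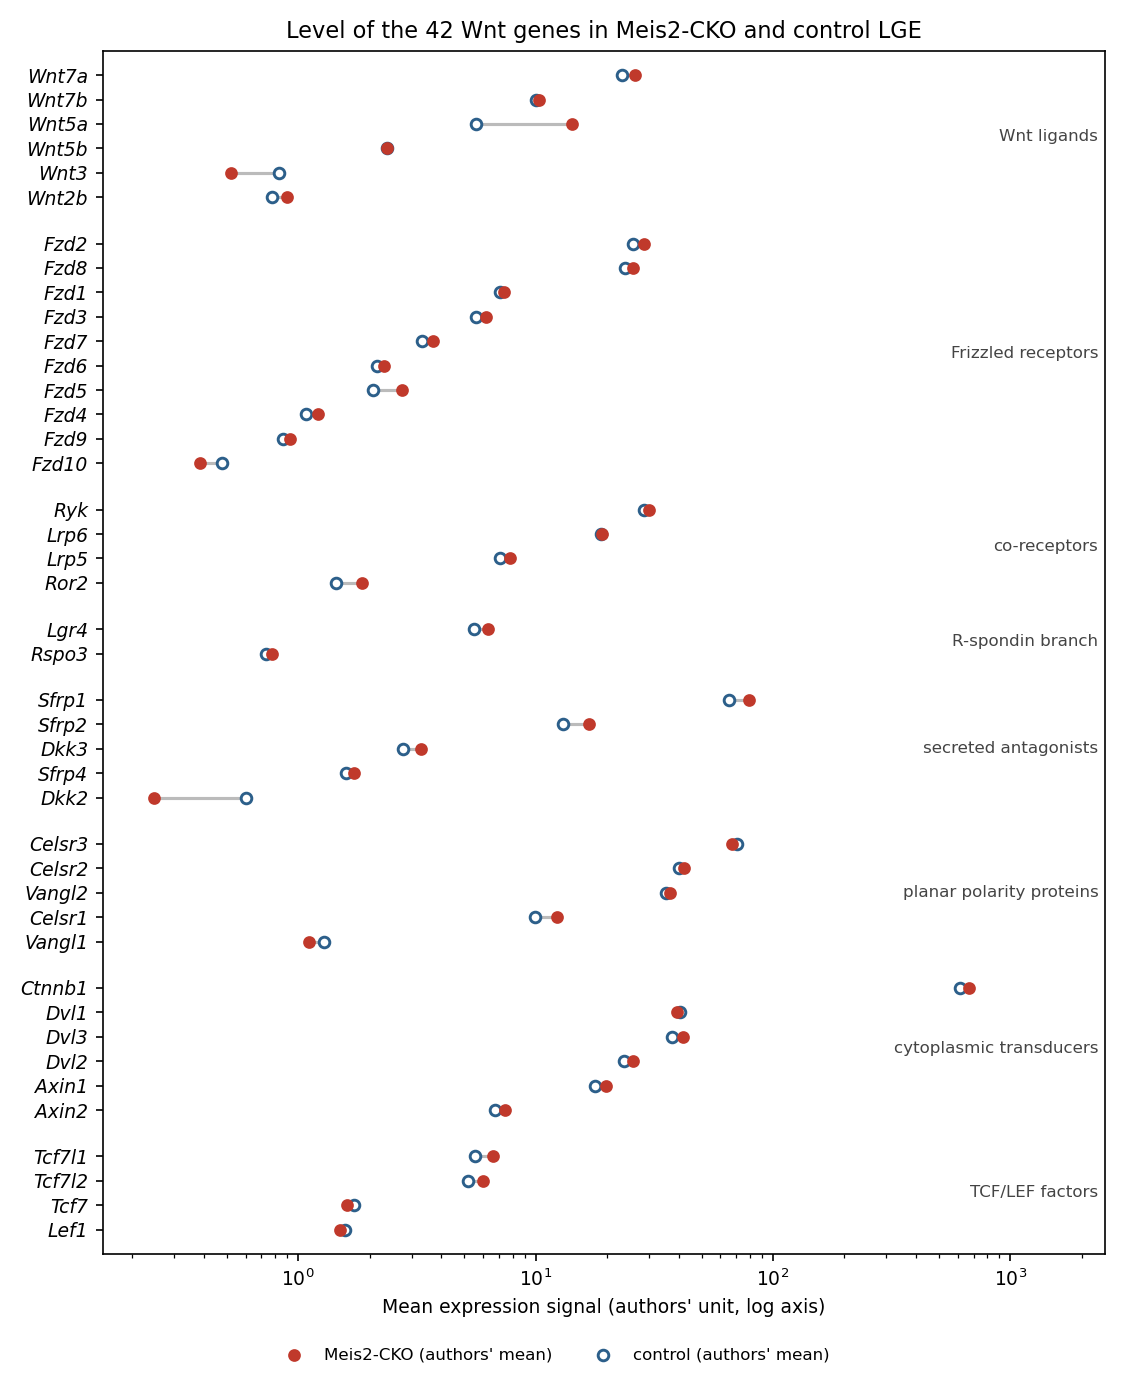
Authors' mean expression signal (horizontal axis, authors' unit, log scale) of all 42 Wnt genes, grouped by role and ordered within a role by the control level, in Meis2-CKO (filled red) and control (open blue); lines join the genotypes of a gene. The genes span from Dkk2 at 0.248 to Ctnnb1 at 667 in Meis2-CKO, and the pairs of points lie close together for most of them; the widest gaps are those of Wnt5a (14.2 in Meis2-CKO and 5.62 in control) and, at a very low level, Dkk2 (0.248 in Meis2-CKO and 0.605 in control).

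Secreted antagonists had the highest median of the roles, 0.26 on the log2 scale over 5 genes, with no gene past the adjusted threshold. Sfrp1, a Frizzled-related decoy made by radial glia, had authors' means of 79.1 in Meis2-CKO and 65.3 in control. Its log2 fold change was 0.29, with an unadjusted p of 0.0201 and an adjusted p of 0.99999 in the authors' deposited table. It and Wnt5a were the only members with an unadjusted p under 0.05, which is 2 of 42 (4.76%). The share was 2.17% of all rows and 1.36% of protein-coding rows. Wnt5a was singled out with its rise known, and without it the share was 1 of 41 (2.44%). At the level of Sfrp1, 1215 protein-coding genes had a higher mean within 1.5 times of it, 5 of them were called lower and 0 higher (37 had an unadjusted p under 0.05), and the smallest absolute log2 fold change called was 0.51. Sfrp2, its relative, had authors' means of 16.8 in Meis2-CKO and 13.0 in control (log2 fold change 0.38, p = 0.148 in the authors' deposited table). Its antisense neighbour Gm26771 had 0.633 in Meis2-CKO and 0.248 in control, and their reads cannot be separated where exons overlap, which was not checked. Dkk3, a divergent member of the Dickkopf family, had authors' means of 3.31 in Meis2-CKO and 2.76 in control, and Sfrp4 1.71 in Meis2-CKO and 1.59 in control. Dkk2, which binds Lrp5 and Lrp6, was listed at a very low level (0.248 in Meis2-CKO and 0.605 in control; log2 fold change -0.96, p = 0.436 in the authors' deposited table).

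Planar polarity genes had differences in both directions, and none passed. Celsr3, an atypical cadherin of axon tracts, had authors' means of 67.2 in Meis2-CKO and 70.3 in control, and Celsr2 42.05 in Meis2-CKO and 40.3 in control. Celsr1, the relative most linked to progenitors, had the largest log2 fold change of the 5, with means of 12.3 in Meis2-CKO and 9.99 in control (log2 fold change 0.31, p = 0.306 in the authors' deposited table). Vangl2, a membrane scaffold of the pathway, had authors' means of 36.9 in Meis2-CKO and 35.4 in control, and Vangl1 1.12 in Meis2-CKO and 1.29 in control. Vangl1 had the lowest log2 fold change (-0.18, p = 0.834 in the authors' deposited table), and 3 of the 5 genes lay above 0.

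The cytoplasmic transducers held the most abundant member. Ctnnb1, which encodes beta-catenin and also serves in cell junctions, had authors' means of 667 in Meis2-CKO and 615 in control (log2 fold change 0.13, p = 0.104 in the authors' deposited table). The Dishevelled genes, which relay the signal from Frizzled, had authors' means of 39.3 in Meis2-CKO and 40.5 in control for Dvl1, 25.8 in Meis2-CKO and 23.6 in control for Dvl2, and 41.7 in Meis2-CKO and 37.6 in control for Dvl3. Axin1, the scaffold of the complex that degrades beta-catenin, had 19.8 in Meis2-CKO and 17.8 in control (log2 fold change 0.17, p = 0.475 in the authors' deposited table). Dvl1 had the lowest log2 fold change of the transducers (-0.03, p = 0.847 in the authors' deposited table). Axin2, a scaffold that is also a common readout of beta-catenin signalling, had authors' means of 7.45 in Meis2-CKO and 6.76 in control (log2 fold change 0.15, p = 0.690 in the authors' deposited table).

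TCF/LEF factors, the DNA-binding partners of beta-catenin, lay on both sides of 0. Tcf7l1, which acts largely as a repressor, had authors' means of 6.59 in Meis2-CKO and 5.57 in control, and Tcf7l2 6.01 in Meis2-CKO and 5.20 in control. Tcf7 had 1.61 in Meis2-CKO and 1.72 in control, and Lef1, whose inner start is printed above, 1.49 in Meis2-CKO and 1.58 in control. The log2 fold change was 0.25 for Tcf7l1 (p = 0.538) and -0.08 for Tcf7 (p = 0.917) in the authors' deposited table, and no factor passed.

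Over the whole set, means were slightly higher in Meis2-CKO. A log2 fold change above 0 was found for 34 of 42 members, against 53.3% of all rows, and the median was 0.13, against 0.01 over all rows of the authors' deposited table. Of the 36 members with a higher mean of at least 1, 31 lay above 0, against 54.7% of protein-coding genes of that level, and the median was 0.15. Apart from Wnt5a, these ran from -0.18 to 0.40. The members share a tissue and often a cell type, so they are not independent. Radial glia, which express several of these genes, had means that lay the same way. All 6 marker genes (Fabp7, Hes5, Nes, Slc1a3, Sox2, Vim) had higher means, and their sum was 1766 in Meis2-CKO and 1563 in control. Their median log2 fold change was 0.21, 0 passed, and 1 had an unadjusted p under 0.05. Their part in the shift of the Wnt genes was not tested.

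Markers of neighbouring territories and of other cell types lay on both sides of 0. A log2 fold change above 0 was found for 3 of 3 medial eminence, 5 of 7 pallial and 5 of 6 endothelial and pericyte markers. Their medians were 0.17, 0.10 and 0.06, so a lean above 0 was not particular to radial glia. Above 0 lay 1 of 5 listed markers of the meninges and 0 of 4 of septum and Cajal-Retzius cells. For the meninges 5 of 6 markers were listed, and their authors' means summed to 2.18 in Meis2-CKO and 4.01 in control. The cortical hem and choroid plexus had 2 of 6 markers listed, Otx2 with authors' means of 7.498 in Meis2-CKO and 7.78 in control and Kcnj13 with 0.355 in Meis2-CKO and 0.035 in control. The 4 markers of septum and Cajal-Retzius cells summed to 30.8 in Meis2-CKO and 41.8 in control. The 7 pallial markers summed to 178 in Meis2-CKO and 157 in control, and the 3 of the medial eminence to 28.4 in Meis2-CKO and 25.4 in control. The 6 endothelial and pericyte markers summed to 56.6 in Meis2-CKO and 54.8 in control. None of these markers was called in the authors' deposited table; 1 of them, the pallial progenitor gene Neurog2, had an unadjusted p under 0.05 (p = 0.0155, authors' means of 27.4 in Meis2-CKO and 19.2 in control). The part of pallial or medial tissue in the level of Wnt5a was not tested.

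Other genes of the pathway, 97 genes on a list that left the members out, gave no call. Of these 88 were listed, and 53 lay above 0 (60.2%, against 53.3% of all rows), with a median log2 fold change of 0.02. The adjusted threshold was passed by 0 of them, in the authors' deposited table and under Benjamini-Yekutieli. The former called 0.78% of all rows, so 0 calls among 88 genes is no clear shortfall. An unadjusted p under 0.05 was found for 2 of the 88 (2.27%), against 2.17% of all rows and 1.36% of protein-coding rows. With 2 genes, neither an excess nor a shortfall can be read from these shares. The first was Tle4, a Groucho-type co-repressor that binds TCF/LEF factors, with authors' means of 9.59 in Meis2-CKO and 15.6 in control (log2 fold change -0.68, p = 0.0188 in the authors' deposited table). The other was Myc, a growth regulator and known target of beta-catenin, with 6.98 in Meis2-CKO and 12.1 in control (log2 fold change -0.77, p = 0.0195 in the authors' deposited table). Tle2, another co-repressor of that family, had authors' means of 14.4 in Meis2-CKO and 10.3 in control (log2 fold change 0.49, p = 0.0904 in the authors' deposited table).

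Genes known as beta-catenin targets had means on both sides of the control level, and none passed. Of 15 listed targets, with Axin2, Lef1 and Tcf7 among them, 8 had a higher and 7 a lower mean in Meis2-CKO, and their median was 0.08 on the log2 scale. Ccnd1, a cyclin of the early cell cycle, had authors' means of 48.5 in Meis2-CKO and 41.2 in control (log2 fold change 0.25, p = 0.105 in the authors' deposited table), and Ccnd2, its relative, 337 in Meis2-CKO and 295 in control. The feedback inhibitors Nkd1 (7.03 in Meis2-CKO and 6.05 in control), Apcdd1 (12.5 in Meis2-CKO and 11.9 in control) and Znrf3 (3.51 in Meis2-CKO and 3.04 in control) did not pass.

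Ligand secretion, receptor turnover, the destruction complex and the beta-catenin-independent branch gave no call. Wls, the carrier that brings Wnt proteins to the cell surface, had authors' means of 12.6 in Meis2-CKO and 10.3 in control, and Gpc4, a glypican, 21.7 in Meis2-CKO and 18.2 in control. Porcn, the enzyme that attaches the lipid, had 16.01 in Meis2-CKO and 18.4 in control. The 6 listed genes of the group of surface co-factors and receptor turnover had a median log2 fold change of 0.04. Rnf43, a ligase that removes Frizzled, had the smallest p of them (0.183 in Meis2-CKO and 0.393 in control, p = 0.580 in the authors' deposited table). All 16 genes of the destruction complex and its kinases lay between -0.15 and 0.13 on the log2 scale, with Apc at 39.2 in Meis2-CKO and 43.2 in control and Gsk3a at 68.6 in Meis2-CKO and 65.6 in control. The 9 intracellular modulators had a median of -0.01, with Dact1, a Dishevelled-binding protein, at 24.9 in Meis2-CKO and 27.9 in control. Among 29 genes of the polarity and beta-catenin-independent branch the median was 0.02; Camk2b, a calcium-dependent kinase gene, had authors' means of 10.4 in Meis2-CKO and 14.6 in control (log2 fold change -0.47, p = 0.103 in the authors' deposited table), and Daam1, a formin that acts downstream of Dishevelled, 18.4 in Meis2-CKO and 22.1 in control.

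**Figure D4:**
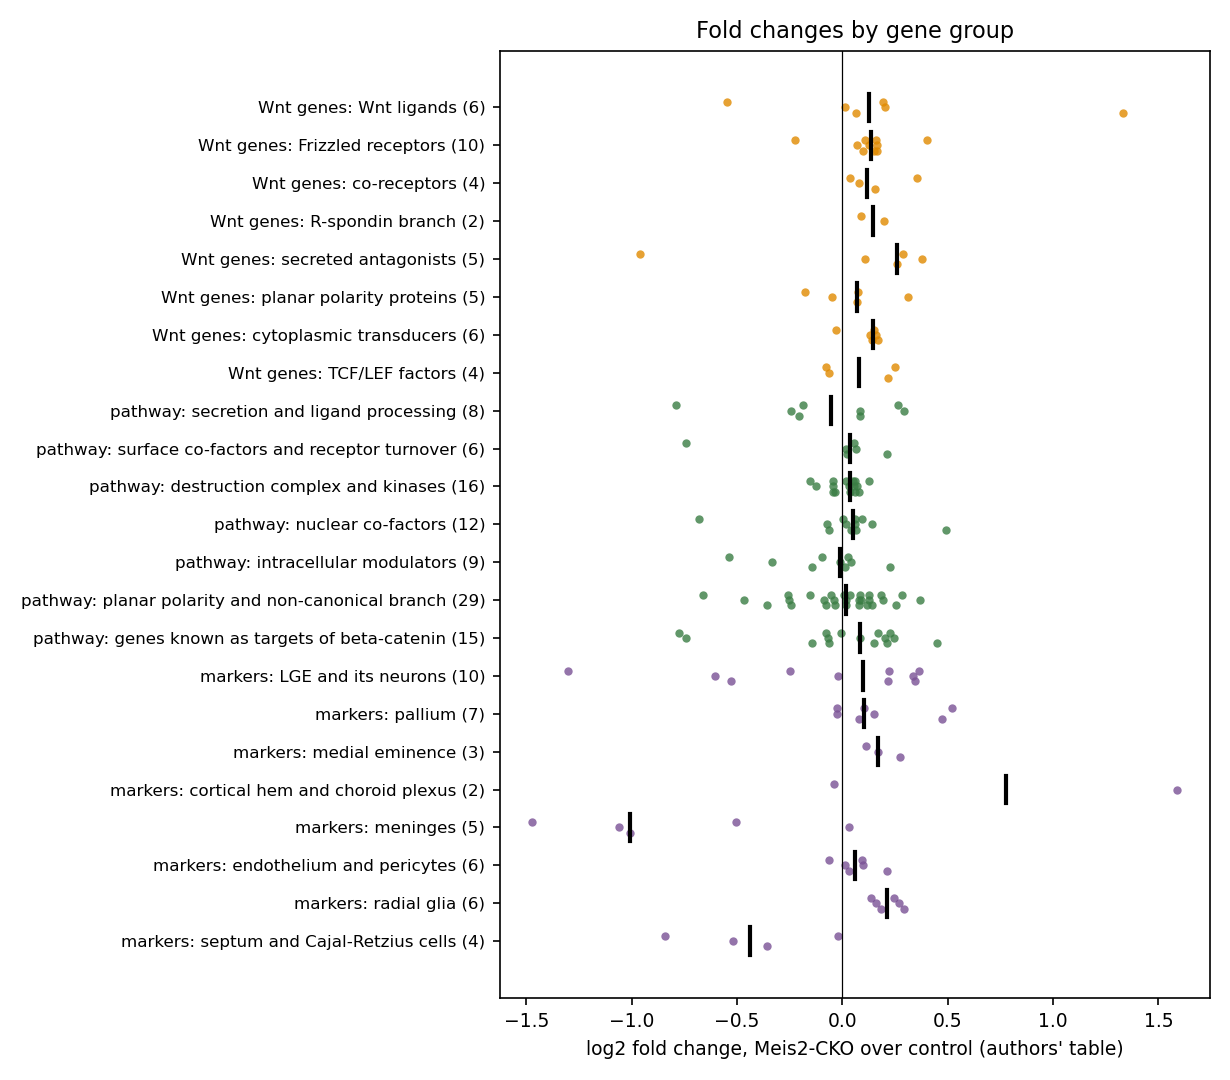
Difference on the log2 scale between Meis2-CKO and control, positive where Meis2-CKO is higher (horizontal axis, authors' deposited table). Points are the genes of the 8 Wnt roles (orange), 7 groups of pathway genes (green) and markers of cell types (purple). Axin2, Lef1 and Tcf7 are drawn in orange and again in green, among the beta-catenin targets. The number of listed genes is in brackets and black bars are medians. The Wnt roles have medians between 0.07 and 0.26, and the only point of these roles beyond 1 is Wnt5a.

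Among the genes annotated to the Gene Ontology terms for Wnt signalling given here, the only called gene was Wnt5a. Of 159 genes with the Gene Ontology term for the Wnt signaling pathway, 38 are members. A log2 fold change above 0 was found for 109 of the 159 (68.6%), against 53.3% of all rows. The authors' deposited table called 1 of the 159 higher and 0 lower. It called 0.78% of all rows, and of the 13643 protein-coding rows it called 4 higher and 43 lower. With 1 call, neither an excess nor a shortfall can be read for this set. An unadjusted p under 0.05 was found for 5 of the 159 (3.14%), against 2.17% of all rows and 1.36% of protein-coding rows. The narrower terms were those for the canonical pathway (62 genes, 24 of them members) and for planar cell polarity (12 genes, 8 of them members). Their median log2 fold changes were 0.06 for the canonical and 0.12 for the polarity term, with 40 of the 62 and 11 of the 12 above 0. Wnt5a, which carries both, was again the only call. Wnt5a included, 4 of the 62 (6.45%) and 2 of the 12 (16.7%) had an unadjusted p under 0.05. The lowest log2 fold change of the canonical term, -1.42, is the value of the Y-linked Uty.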

How the data were processed

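Whole-tissue LGE RNA of 8 samples was analysed. The submitters' processing notes name FastQC 0.11.5, HISAT2 2.1.0 and StringTie 1.3.1, with GRCm38.p2 and mm10, with no part assigned to any of them; no source used here gives the program that tested the genes. Per the file headers, the table holds the authors' mean signal per genotype, a log2 fold change (Meis2-CKO over control), a p-value and its adjusted p-value. The adjusted p-value deposited by the authors equals a Benjamini-Hochberg adjustment over all 16913 rows. The deposited p-values lean high (median 0.760), so a gene that did not pass is not shown to be unchanged. The log2 fold changes exceed log2 ratios of the means by a median of 0.012, and depart further from them for some low genes.

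The table has 8 columns of single libraries whose names match no sample label. They were not used, so every test is the authors' own, sequencing depth is unknown, and no interval or floor is given. A gene is called at an adjusted p of 0.05.

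Members, lists and the rule for named genes were chosen with earlier results of these data known. That rule gives both means for members with a higher mean of at least 1, and p-values for those with an unadjusted p under 0.05 and, among members of that level, for the highest log2 fold change of each role and the lowest where it is under 0; p-values of other members were added for their role. For the lists it gives called genes and those with the smallest p; other genes were named for their role. Positions and exon lengths came from GENCODE M21, matched by Ensembl ID for 16861 rows and all 42 members. Alternatives were other filters on low values, row sets, adjustments, pseudocounts (0.5 and 1) and centring. The adjustments were tested on simulated data. Scripts ran in Python 3.11.15 with pandas 2.3.3, numpy 2.4.6 and scipy 1.17.1, and matplotlib 3.10.9 drew the plots.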

Additional observations from a re-analysis of the deposited data

How the results depend on the processing

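The adjusted p of Wnt5a was computed anew under 7 alternatives and it was called under 6 of them, with adjusted p-values between 0.00771 and 0.0264. Its log2 fold change, which those alternatives leave as deposited, was 1.27 with a pseudocount of 0.5, 1.20 with a pseudocount of 1 and 1.32 after centring on the median of all rows; these 3 and a further fold limit of 1.5 have no p of their own. Under the Benjamini-Yekutieli adjustment its log2 fold change of 1.33 had an adjusted p of 0.109, so 0 members passed in place of 1; that adjustment is stricter by construction. Sfrp1 passed under 0 of the same 7. The median log2 fold change of the members ran from 0.10 with a pseudocount of 1 to 0.15 among genes with a higher mean of at least 2, and 0 other pathway genes passed under the 7 alternatives with a new adjusted p. Restriction to rows of at least 300 nt of exon or above 0 in both genotypes was chosen after seeing the data. No paired analysis was possible because the library columns carry no sample names; for the same reason a fit on single libraries and leaving out each sample were not run.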
